A study of Mus musculus with 28 samples.

Results

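Nucleotide, serine and one-carbon synthesis is described here through 36 mouse genes listed by name. All 36 had a row in both deposited expression tables, among 15582 genes measured in blastocysts and 16745 in morulae (17995 in all). They cover serine synthesis (3 genes), the folate one-carbon cycle (6), synthesis of the activated ribose PRPP (2), purine synthesis to inosine monophosphate, IMP (6), the branch to GMP (3), pyrimidine synthesis (5), deoxynucleotide synthesis (5), nucleoside and base salvage (4) and the nucleoside diphosphate kinases (2).

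A dividing embryo needs nucleotides for DNA and RNA. Serine, made from a glycolytic intermediate, passes a carbon unit to tetrahydrofolate, and this unit is used in building the purine ring and thymidylate. Purines are built on PRPP and pyrimidines from aspartate and carbamoyl phosphate, ribonucleotide reductase turns ribonucleotides into deoxynucleotides, and salvage enzymes recycle preformed bases and nucleosides.

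The series concerns CTCF, a zinc finger protein that binds insulators and stops cohesin loops, and its title links it to chromatin folding after fertilization and to a change in metabolism as the morula becomes a blastocyst. RNA was measured in 27 single whole embryos of the CD1 strain. There were 3 WT_flfl, 4 het, 4 M_KO and 3 MZ_KO blastocysts, and 3 het, 4 del and 6 MZKO morulae. The codes are not spelled out in the labels. In this field, flfl usually marks a floxed allele on both chromosomes, M loss of the maternal store and MZ loss of the maternal and the zygotic product together. The names of the deposited tables give embryonic day 2.5 for morulae and 3.5 for blastocysts, while the labels leave del unexplained and name neither a Cre driver nor the mothers. The prefix C7 stands in the titles of M_KO and MZ_KO, N89 in those of the other blastocysts, N2 in those of del and het morulae and C50 in those of MZKO, so MZ_KO blastocysts share a prefix with M_KO alone and MZKO morulae with no other group. What the prefixes stand for is not given, and in comparisons across them prefix and genotype cannot be told apart. A further library, labelled as het embryo 3 in the other batch, was not analysed here.

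Levels are given in counts per 1000000 reads (CPM) after the authors' scaling, and differences as log2 fold changes on log2(CPM + 1). A gene was tested if it reached 10 CPM in at least 3 embryos of its table, and "rose", "fell" and "passed" mean an adjusted p under 0.05 from limma over all genes tested. Mthfd1l and Prps2 missed this filter in blastocysts and Mthfd1l in morulae, leaving 34 and 35 of the 36 genes. The blastocysts used here are all labelled batch 1 and the morulae batch 2, and the tables were scaled separately. Stage and batch therefore cannot be told apart, and levels set across the tables carry no test. Embryos are separate samples in the labels, and the p-values measure only the spread between them.

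Read totals were 7377302 to 27883060 in blastocysts and 12136606 to 20414013 in morulae, except del 6 with 1635553. Ctcf stood at 3.62 ± 0.660 CPM in MZ_KO blastocysts against 95.1 ± 6.02 in WT_flfl, 67.5 ± 9.73 in het and 69.5 ± 15.6 in M_KO, and at 4.33 ± 3.60 in MZKO, 2.30 ± 2.68 in del and 38.6 ± 14.6 in het morulae (mean ± SD). A pair of morulae stood apart. MZKO 1 and het 1 had the most genes detected (16343 and 16329), the most RNA of the oviduct gene Ovgp1 (1725 and 1135 CPM, against a median of 120.5 over the 13 morulae) and, with 0.401% and 1.52%, the most haemoglobin RNA of the morulae. The 36 genes summed to 7059 CPM in MZKO 1 and 8902 CPM in het 1 against 11150.2 to 16867 CPM in the other 11 morulae. Among blastocysts, WT_flfl 1 and het 6 held the most haemoglobin RNA, 3.43% and 3.10%, against at most 1.137% in the other 12. They also had the most genes detected (15111 and 15268) and the most Ovgp1 RNA (123 and 486 CPM, median of blastocysts 23.9). M_KO 3 held 707 CPM of Star, listed as a granulosa and cumulus gene, against a median of 4.29 CPM. Trophectoderm genes (8 listed, 7 with a group mean of at least 10 CPM in each blastocyst group) summed to 3830 to 5062 CPM in MZ_KO, 7030 to 7292 in WT_flfl, 4697 to 7419 in het and 5429 to 9232 in M_KO. Inner cell mass and epiblast genes summed to 843 to 1035 CPM in MZ_KO, 721 to 956 in WT_flfl, 719 to 907 in het and 1004 to 1060 in M_KO. Primitive endoderm genes summed to 189 to 233 CPM in MZ_KO, 180 to 290 in WT_flfl, 164 to 527 in het and 190 to 313 in M_KO. The part of these embryos and cell types in the results below was not tested. In whole embryos fewer cells of a type and less RNA per cell cannot be told apart.

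In MZ_KO blastocysts members passed in both directions, as did genes at large. Against WT_flfl, 10 of the 34 tested genes passed, 3 higher and 7 lower, where 13.2% of all 9585 genes tested passed, 4.84% higher and 8.36% lower. Phgdh, Nme1 and Nme2 rose, and Mthfd2, Adsl, Gart, Dhodh, Rrm1, Mthfd1 and Prps1 fell. Nme1 and Nme2 are neighbours that are hard to count apart, as described below, so their calls are not independent. Against het, 8 passed (background 17.9%, 7.02% higher and 10.8% lower), 3 higher and 5 lower. Against M_KO, 7 passed (background 11.8%, 3.74% higher and 8.09% lower), 2 higher (Nme1 and Nme2) and 5 lower. These comparisons share the 3 MZ_KO embryos, and whether the member counts differ from the shares of all genes was not tested. The median log2 fold change of the 34 genes was −0.12, −0.15 and −0.08 in that order, and that of all genes −0.05, −0.06 and −0.03. The summed level of all 36 genes was 9149 ± 143 CPM in MZ_KO, 8899.5 ± 476 in WT_flfl, 8363 ± 648 in het and 8685 ± 741 in M_KO, and the groups overlapped.

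**Figure D1:**
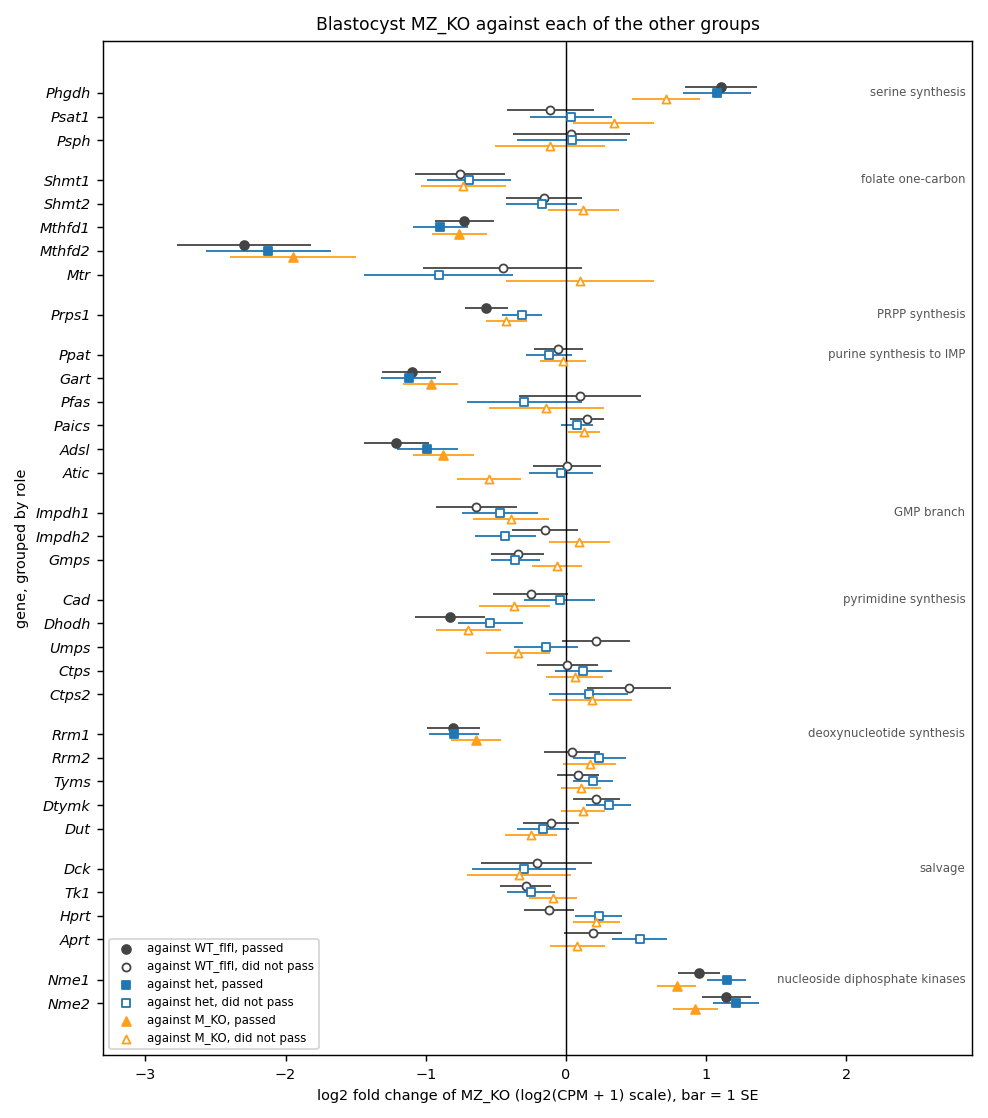
Log2 fold change of blastocyst MZ_KO against WT_flfl (circles), het (squares) and M_KO (triangles) for the 34 tested genes, on log2(CPM + 1), with bars of 1 SE; filled symbols passed at an adjusted p under 0.05. Mthfd2 lies farthest to the left, at −2.30, −2.12 and −1.95, while Phgdh, Nme1 and Nme2 lie to the right of 0 in all 3 comparisons.

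Promoters were read for 34 of the 36 genes from RefSeq (GRCm38.p6), as 250 bases before to 50 after each start, with 41 starts among them. Dhodh and Pfas had no entry. Shown 5′ to 3′ on the strand of the gene are those of all 5 genes that fell against each of the other blastocyst groups, of Nme1 and Nme2, which rose against each, and of Phgdh, which rose against WT_flfl and het, so that genes moving in opposite directions can be set side by side. Capitals mark ATTGG or its complement CCAAT, the core of the CCAAT box, and CACGTG, the E-box bound by MYC and related factors.
Mthfd2, chr6:83317555-83317854, minus strand: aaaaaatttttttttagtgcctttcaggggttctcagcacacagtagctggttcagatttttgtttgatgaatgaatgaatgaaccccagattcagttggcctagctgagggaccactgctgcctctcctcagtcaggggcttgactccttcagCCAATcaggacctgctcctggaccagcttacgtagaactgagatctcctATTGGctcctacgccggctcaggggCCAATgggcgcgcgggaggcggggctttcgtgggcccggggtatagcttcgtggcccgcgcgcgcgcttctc
Mthfd1, chr12:76254982-76255281, plus strand: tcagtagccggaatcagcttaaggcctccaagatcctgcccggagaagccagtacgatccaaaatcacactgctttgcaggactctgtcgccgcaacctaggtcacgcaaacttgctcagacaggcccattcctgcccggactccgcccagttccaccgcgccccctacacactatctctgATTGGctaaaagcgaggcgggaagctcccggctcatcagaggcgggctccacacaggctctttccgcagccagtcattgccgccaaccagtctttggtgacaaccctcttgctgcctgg
Gart, chr16:91646923-91647222, minus strand: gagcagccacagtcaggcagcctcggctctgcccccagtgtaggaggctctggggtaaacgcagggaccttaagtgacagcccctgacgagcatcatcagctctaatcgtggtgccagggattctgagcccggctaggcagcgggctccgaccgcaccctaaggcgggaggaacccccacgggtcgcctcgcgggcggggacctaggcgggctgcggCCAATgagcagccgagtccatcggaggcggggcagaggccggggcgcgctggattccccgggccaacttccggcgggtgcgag
Adsl, chr15:80948240-80948539, plus strand: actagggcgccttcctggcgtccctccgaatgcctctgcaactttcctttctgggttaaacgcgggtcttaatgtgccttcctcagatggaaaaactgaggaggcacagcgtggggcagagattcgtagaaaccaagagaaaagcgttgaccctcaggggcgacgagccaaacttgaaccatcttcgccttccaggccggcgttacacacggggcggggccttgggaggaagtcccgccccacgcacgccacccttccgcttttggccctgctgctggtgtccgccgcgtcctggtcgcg
Rrm1, chr7:102441445-102441744, plus strand: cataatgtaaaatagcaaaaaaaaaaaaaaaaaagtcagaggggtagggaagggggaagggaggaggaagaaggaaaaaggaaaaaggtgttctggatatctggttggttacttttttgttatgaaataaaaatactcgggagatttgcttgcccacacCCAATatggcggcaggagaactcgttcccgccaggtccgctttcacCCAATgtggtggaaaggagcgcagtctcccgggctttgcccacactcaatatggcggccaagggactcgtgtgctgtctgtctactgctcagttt
Phgdh, chr3:98339920-98340219, minus strand: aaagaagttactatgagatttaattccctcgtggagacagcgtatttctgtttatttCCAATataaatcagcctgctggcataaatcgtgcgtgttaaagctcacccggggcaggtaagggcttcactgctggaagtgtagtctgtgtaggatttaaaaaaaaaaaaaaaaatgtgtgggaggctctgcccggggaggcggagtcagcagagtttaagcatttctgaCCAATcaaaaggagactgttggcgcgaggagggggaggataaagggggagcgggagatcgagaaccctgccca
Nme1, chr11:93968223-93968522, minus strand: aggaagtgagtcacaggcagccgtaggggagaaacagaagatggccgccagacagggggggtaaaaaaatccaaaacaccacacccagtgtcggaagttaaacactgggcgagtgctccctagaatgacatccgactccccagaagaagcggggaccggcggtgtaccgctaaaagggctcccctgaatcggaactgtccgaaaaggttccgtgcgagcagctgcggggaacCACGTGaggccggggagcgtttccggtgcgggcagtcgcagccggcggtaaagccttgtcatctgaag
Nme2, chr11:93956207-93956506, minus strand: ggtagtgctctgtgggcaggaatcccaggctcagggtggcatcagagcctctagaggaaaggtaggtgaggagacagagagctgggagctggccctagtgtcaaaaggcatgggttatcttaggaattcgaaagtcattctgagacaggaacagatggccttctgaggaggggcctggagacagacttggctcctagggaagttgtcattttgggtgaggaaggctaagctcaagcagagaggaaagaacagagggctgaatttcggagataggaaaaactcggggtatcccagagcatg
ATTGG or CCAAT lies at 3 places in the Mthfd2 window (first bases at −96, −47 and −22 from the start), at −69 in Mthfd1, at −33 in Gart, at −91 and −45 in Rrm1 and at −193 and −23 in Phgdh. It is not in the windows of Adsl, Nme1 or Nme2, so genes with and without it stand among those that fell and among those that rose. Searched on both strands, it was in 16 of the 41 member windows (39.0%) and in 37.4% of all 32851 RefSeq windows of this length. CACGTG was in 7 of 41 member windows (17.1%) and in 7.15% of all. The member windows belong to Atic, Dtymk, Impdh2, Nme1 (at −18), Paics and Tyms, and a gene can have more than 1 window. Of these genes Nme1 alone passed in a blastocyst comparison. TTTCCCGC, an E2F-like motif, was in 2 of 41 (1.07% of all), and TTTGGCGC (0.514% of all) and TGATGCAA, an ATF4-like motif (0.895% of all), were in none. These matches describe letters only.

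Serine synthesis begins with Phgdh, phosphoglycerate dehydrogenase, the enzyme that commits 3-phosphoglycerate to serine (chromosome 3, 98313170 to 98339990, minus strand, GRCm38). In blastocysts it stood at 1259, 1415 and 1066 CPM in the 3 MZ_KO embryos. The WT_flfl embryos had 576, 681 and 485 CPM, the het embryos 651, 631, 444 and 645, and the M_KO embryos 437, 959.9, 716 and 1083. All MZ_KO embryos lay above every WT_flfl and het embryo, and M_KO embryo 5 reached into the MZ_KO range. Phgdh rose by 1.11 against WT_flfl (SE 0.26, limma adjusted p = 0.00979) and by 1.08 against het (SE 0.24, adjusted p = 0.00613). Against M_KO its estimate was 0.71 (SE 0.24, adjusted p = 0.0665), which did not pass. It did pass after rescaling to the median gene (adjusted p = 0.0494) and without M_KO 3 or M_KO 5 (0.0447 and 0.0288). Psat1 and Psph, the transaminase and phosphatase of the next steps, passed in no comparison, with estimates of −0.11 (95% interval −0.77 to 0.54) and 0.04 (−0.85 to 0.92) against WT_flfl. Of the 3 serine genes only Phgdh passed, and the difference between its effect and those of Psat1 and Psph was not tested.

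Among the folate genes, 2 of the 5 tested fell against each of the other blastocyst groups. Of all genes, 8.36% fell against WT_flfl, 10.8% against het and 8.09% against M_KO. The share falling against all 3 was not counted. Mthfd2, the mitochondrial methylenetetrahydrofolate dehydrogenase and cyclohydrolase (chromosome 6, 83305691 to 83325908, minus strand), stood at 2.29, 7.99 and 2.65 CPM in MZ_KO, from 55, 174 and 72 reads. It stood at 15.1, 29.0 and 25.7 CPM in WT_flfl, 19.3, 16.8, 24.2 and 19.3 in het and 28.7, 8.36, 17.3 and 21.4 in M_KO. No MZ_KO embryo reached the lowest of the 11 others, though MZ_KO 6 came close to M_KO 3. Mthfd2 fell by 2.30 against WT_flfl (SE 0.48, adjusted p = 0.00487), fell by 2.12 against het (SE 0.45, adjusted p = 0.00406) and by 1.95 against M_KO (SE 0.45, adjusted p = 0.00998). At such a low level the size depended on the pseudocount and test, ranging from −2.76 to −1.62 against WT_flfl over the alternatives. The call against M_KO was lost with only those groups in the fit (adjusted p = 0.0535) and with limma voom on whole reads (0.112).

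Mthfd1, the cytosolic enzyme with 3 activities that carries one-carbon units between folate forms (chromosome 12, 76255298 to 76319803, plus strand), stood at 196, 155 and 211 CPM in MZ_KO. The other groups had 345, 353 and 239 CPM (WT_flfl), 319, 342, 408 and 323 (het) and 344, 288, 234 and 427 (M_KO), all above MZ_KO. It fell by 0.73 against WT_flfl (SE 0.21, adjusted p = 0.0319), 0.90 against het (SE 0.20, adjusted p = 0.00546) and 0.76 against M_KO (SE 0.20, adjusted p = 0.0197). Against WT_flfl it no longer passed once MZ_KO 2, MZ_KO 6, WT_flfl 1 or WT_flfl 7 was left out (adjusted p = 0.0611, 0.120, 0.106 and 0.119), once WT_flfl 1 and het 6 were left out together (0.110), or with a filter of 1 CPM in 1 embryo (0.05002). Against M_KO it no longer passed without M_KO 1, M_KO 5 or MZ_KO 6 (0.0546, 0.0548 and 0.0920).

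The serine hydroxymethyltransferases load the carbon of serine onto folate, Shmt1 in the cytosol and Shmt2 in mitochondria. Shmt1 stood at 125 ± 48.1 CPM in MZ_KO (n = 3) and 209 ± 64.3 in WT_flfl (n = 3), and its estimates of −0.75, −0.69 and −0.73 against WT_flfl, het and M_KO did not pass (adjusted p = 0.129, 0.122 and 0.127), although that against het did without MZ_KO 6 (0.0494). Shmt2 and Mtr, the methionine synthase, did not pass either, with estimates between −0.91 and 0.12. Mthfd1l, the mitochondrial formyltetrahydrofolate synthetase, was low in every group, at 0.889 to 16.9 CPM over the 14 blastocysts and 0 to 15.9 CPM over the 13 morulae. The summed level of the folate genes was 382 to 482 CPM in MZ_KO, below all 11 other blastocysts (526 to 804 CPM).

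Prps1, the PRPP synthetase that supplies activated ribose to purine and pyrimidine synthesis (X chromosome, 140456613 to 140476140, plus strand), stood at 429, 545 and 671 CPM in MZ_KO and 853, 797 and 753 CPM in WT_flfl. Het embryos had 617, 745, 665 and 667 CPM and M_KO embryos 751, 831, 656 and 671. MZ_KO lay below every WT_flfl embryo and overlapped with het and M_KO. It fell by 0.57 against WT_flfl (SE 0.15, adjusted p = 0.0222), and its estimates of −0.32 against het and −0.42 against M_KO did not pass (adjusted p = 0.139 and 0.0643). Without MZ_KO 2 the estimate was −0.40 (adjusted p = 0.103). Without MZ_KO 6, WT_flfl 1 or WT_flfl 7 it was −0.58, −0.52 or −0.57, close to the full value, with fewer embryos and adjusted p = 0.0512, 0.0751 or 0.0607. It was 0.0850 without WT_flfl 1 and het 6 and 0.0534 with only those groups in the fit. Without MZ_KO 7, Prps1 did fall against het (−0.47, adjusted p = 0.0359) and M_KO (−0.58, 0.0176). Its paralog Prps2 was at 0 to 15.6 CPM in blastocysts and untested there.

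Of the 6 enzymes that build IMP, Gart and Adsl fell and the other 4 did not pass (8.09 to 10.8% of all genes fell per comparison). Gart carries 3 activities of the route, including the first formyl transfer from folate (chromosome 16, 91621186 to 91646952, minus strand). It stood at 97.5, 123 and 85.9 CPM in MZ_KO, and at 182, 252 and 225 in WT_flfl, 275, 195, 201 and 219 in het and 197, 148, 202 and 259.7 in M_KO, with no overlap. Gart fell by 1.10 against WT_flfl (SE 0.21, adjusted p = 0.00275), 1.12 against het (SE 0.20, adjusted p = 0.00123) and 0.97 against M_KO (SE 0.20, adjusted p = 0.00455). It passed in all 14, 15 and 14 alternatives run for these comparisons.

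Adsl, adenylosuccinate lyase, acts both on the way to IMP and in the branch from IMP to AMP (chromosome 15, 80948490 to 80970946, plus strand). It stood at 52.9, 64.2 and 40.6 CPM in MZ_KO. The lowest of the other 11 blastocysts was M_KO 4 at 71.6 CPM, WT_flfl had 109.9, 131 and 123 CPM, het 116, 90.0, 87.2 and 127, and the other M_KO embryos 94.7, 95.7 and 129. It fell by 1.21 against WT_flfl (SE 0.23, adjusted p = 0.00286), 0.99 against het (SE 0.22, adjusted p = 0.00532) and 0.87 against M_KO (SE 0.22, adjusted p = 0.0159), the last lost without MZ_KO 7 (adjusted p = 0.0701). Ppat, the amidotransferase that opens the route, had estimates of −0.05, −0.12 and −0.02 against WT_flfl, het and M_KO, with 95% intervals of −0.42 to 0.31, −0.47 to 0.22 and −0.37 to 0.32. Paics, which acts between Gart and Adsl, was at 493, 496 and 560.0 CPM in MZ_KO and 411 to 524 CPM in the other 11 blastocysts. Ppat and Paics overlap head to head on opposite strands and strand was not recorded, so their shared bases cannot be assigned to either. Pfas and Atic did not pass, with estimates between −0.55 and 0.10.

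No gene of the GMP branch or of salvage passed in any blastocyst comparison, where at most 17.9% of all genes passed. Impdh1, Impdh2 and Gmps, which turn IMP into GMP, summed to 454 to 519 CPM in MZ_KO, 580.3 to 651 in WT_flfl, 509 to 789 in het and 419 to 619 in M_KO. Their estimates against WT_flfl were −0.64, −0.15 and −0.34 (adjusted p = 0.154, 0.717 and 0.244). Gmps fell against het in the fit without MZ_KO 7 (−0.56, adjusted p = 0.0421). Hprt and Aprt, which salvage purine bases, and Dck and Tk1, which phosphorylate deoxynucleosides, had estimates between −0.29 and 0.20 against WT_flfl. Aprt came nearest to the threshold, at 0.53 against het (SE 0.19, adjusted p = 0.0726), and passed without het 8 (0.0239).

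In pyrimidine synthesis 1 of the 5 genes passed, against WT_flfl, where 13.2% of all genes passed. Dhodh, the mitochondrial dihydroorotate dehydrogenase that feeds electrons to ubiquinone (chromosome 8, 109591343 to 109608673, minus strand), stood at 55.7, 43.9 and 34.0 CPM in MZ_KO and 71.8, 82.7 and 80.6 CPM in WT_flfl. Het had 46.6, 80.2, 65.7 and 68.2 CPM and M_KO 74.5, 94.1, 63.2 and 58.7. MZ_KO lay below WT_flfl and M_KO and overlapped with het. Dhodh fell by 0.83 against WT_flfl (SE 0.25, adjusted p = 0.0359), with −0.54 and −0.70 against het and M_KO not passing (0.117 and 0.0601). Leaving out MZ_KO 6, MZ_KO 7 or any single WT_flfl embryo ended the call (adjusted p = 0.0650 to 0.122), as did leaving out WT_flfl 1 and het 6 (0.0790), a filter of 1 CPM in 1 embryo (0.0531) and a fit of only those groups (0.0590). Against M_KO it passed without MZ_KO 2 (0.0475) and with a filter of 30 CPM in 3 embryos (0.0499). Cad, Umps, Ctps and Ctps2, the enzymes before and after this step, had estimates between −0.25 and 0.45 against WT_flfl, and none passed.

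In deoxynucleotide synthesis 1 of the 5 genes passed, against each of the other groups, where 11.8 to 17.9% of all genes passed. Rrm1, the large catalytic subunit (chromosome 7, 102441695 to 102469771, plus strand), stood at 245, 304 and 359 CPM in MZ_KO. It stood at 524, 442 and 616 CPM in WT_flfl, 644, 577, 443 and 446 in het and 455, 396, 569 and 465 in M_KO, all above MZ_KO. Rrm1 fell by 0.80 against WT_flfl (SE 0.19, adjusted p = 0.0105), 0.80 against het (SE 0.18, adjusted p = 0.00589) and 0.64 against M_KO (SE 0.18, adjusted p = 0.0277). Removing MZ_KO 2 or WT_flfl 9 ended the call against WT_flfl (adjusted p = 0.0544 and 0.0522). The call against M_KO ended without M_KO 1, M_KO 4, MZ_KO 2 or MZ_KO 6 (0.0539, 0.0811, 0.135 and 0.0647). Rrm2, the small radical-bearing subunit, stood at 937 ± 19.6 CPM in MZ_KO and 935 ± 263 in WT_flfl (n = 3 each), with an estimate of 0.05 (95% interval −0.38 to 0.47). Tyms, Dtymk and Dut, which make thymidylate, phosphorylate it and remove dUTP, had estimates between −0.11 and 0.22 against WT_flfl and did not pass. The difference between the Rrm1 and Rrm2 effects was not tested.

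Nme1 and Nme2, the nucleoside diphosphate kinases that turn diphosphates into triphosphates, rose together. Nme1 (chromosome 11, 93956979 to 93968521, minus strand) stood at 1030.1, 946 and 809.7 CPM in MZ_KO, against 507, 447 and 486 in WT_flfl, 408, 477, 323 and 482 in het and 534, 527, 533 and 539.9 in M_KO. Nme2, its neighbour on the same strand (93949814 to 93956259), stood at 499.7, 339 and 443 CPM in MZ_KO, against 195, 177 and 199.6 in WT_flfl, 158, 205, 159 and 209 in het and 249, 234, 219 and 189 in M_KO. For both genes each MZ_KO embryo lay above all 11 others. Nme1 rose by 0.95 against WT_flfl (SE 0.15, adjusted p = 6.85e-04), 1.15 against het (SE 0.14, adjusted p = 5.22e-05) and 0.79 against M_KO (SE 0.14, adjusted p = 0.00177). Nme2 rose by 1.144 (SE 0.17, adjusted p = 4.72e-04), 1.22 (SE 0.16, adjusted p = 1.29e-04) and 0.92 (SE 0.16, adjusted p = 0.00174) in the same comparisons. These 6 calls held in each alternative run.

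The Nme genes are hard to count apart. A read-through gene model, Gm20390, spans both on the same strand and shares 12.5% of the 3342 exon bases of Nme1 and 48.9% of the 1171 of Nme2, and the coding sequences of Nme1 and Nme2 are identical at 80.3% of 456 bases. The deposited counts gave Gm20390 43.0 to 50.4% of the reads of the 3 models in blastocysts and 26.3 to 41.4% in morulae. Gm20390 rose in MZ_KO too, by 1.06 against WT_flfl (SE 0.15, adjusted p = 2.55e-04) and 1.17 against het (SE 0.14, adjusted p = 4.45e-05). Summed over the 3 models, the locus stood at 2592 ± 304 CPM in MZ_KO, 1259 ± 82.4 in WT_flfl, 1156 ± 188 in het and 1442 ± 13.1 in M_KO, with no MZ_KO embryo (lowest 2288 CPM) near the highest of the others (1451 CPM). The higher level of the locus as a whole does not depend on that split, while the level of each gene does.

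**Figure D2:**
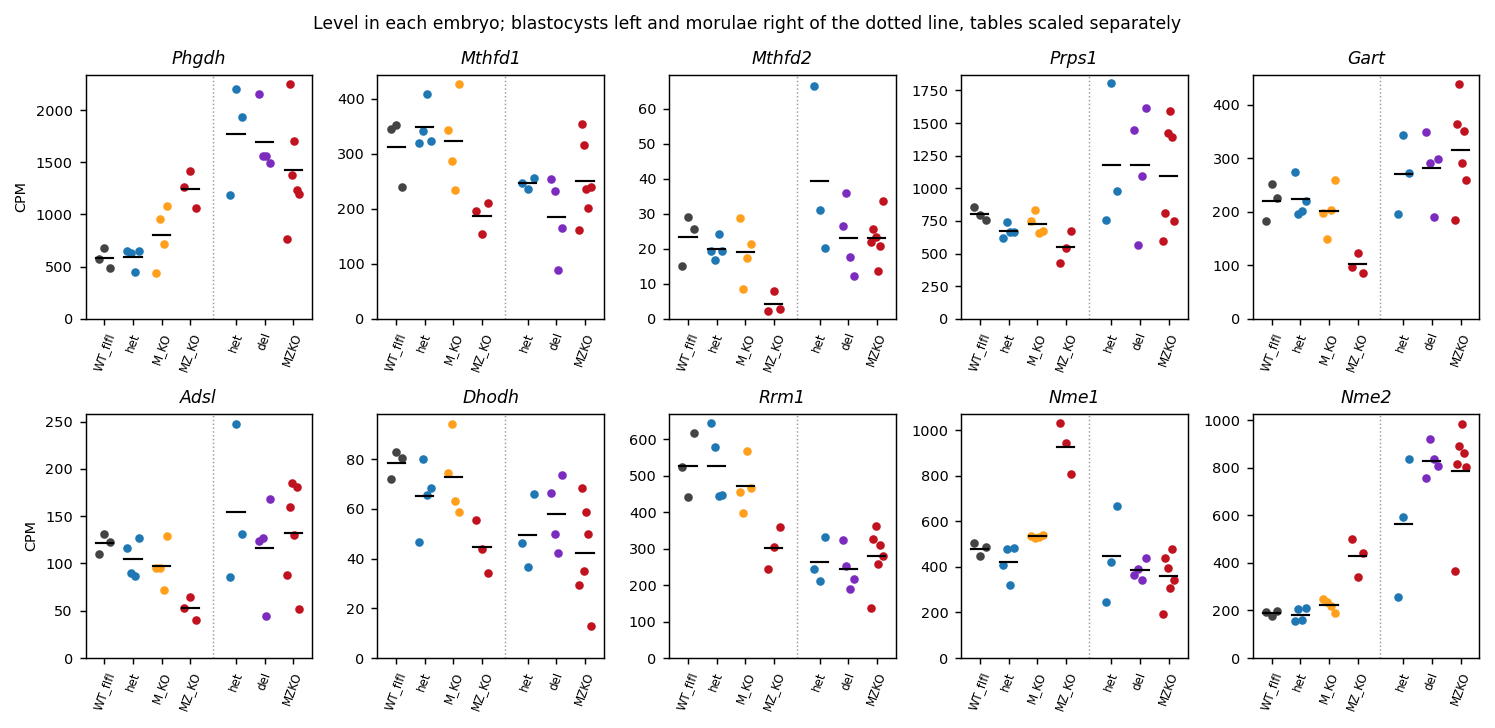
Level in CPM of the 10 genes that passed in at least 1 blastocyst comparison, 1 point per embryo and a bar at the group mean, with blastocyst groups left and morula groups right of the dotted line (tables scaled separately). MZ_KO blastocysts lie apart from the other 11 for Mthfd1, Mthfd2, Gart, Adsl, Rrm1, Nme1 and Nme2, whereas MZKO morulae overlap with het and del morulae for all 10 genes.

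Counted over the 34 tested genes, MZ_KO lay outside all 11 other blastocysts for 7. Nme1 and Nme2, neighbours hard to count apart, lay above, where 6.13% of all genes did. Mthfd1, Mthfd2, Gart, Adsl and Rrm1 lay below, where 6.85% did. Set against WT_flfl alone, MZ_KO lay wholly above for 5 genes (14.9% of all genes) and wholly below for 9 (17.4%), and against het alone for 5 (12.5%) and 6 (14.4%). Among the summed role groups, MZ_KO exceeded all other blastocysts for the nucleoside diphosphate kinases (1252 to 1530 against 481 to 783 CPM). For serine synthesis the highest M_KO embryo (1397 CPM) lay within the MZ_KO range of 1313 to 1651 CPM. Deoxynucleotide synthesis, whose sum is led by Rrm2, lay at 1808 to 1878 CPM in MZ_KO, overlapping with WT_flfl (1859 to 2204), het (1559.8 to 2107) and M_KO (1709 to 2054).

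**Figure D3:**
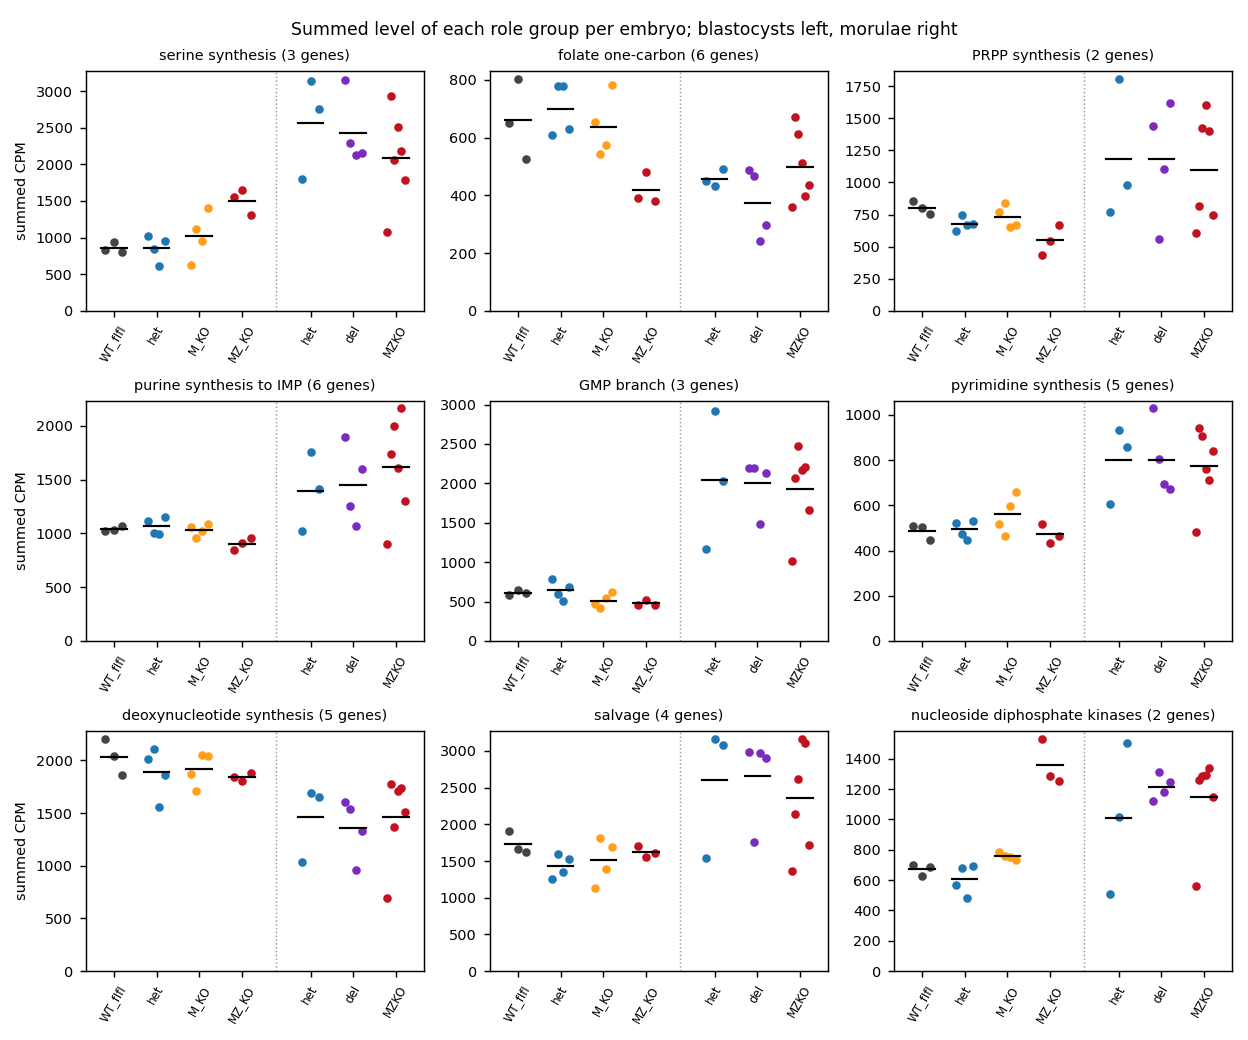
Summed CPM of the genes of each role, 1 point per embryo and a bar at the group mean, blastocysts left and morulae right of the dotted line. The folate sum is lowest and the nucleoside diphosphate kinase sum highest in MZ_KO blastocysts; in morulae MZKO 1 and het 1 give low sums in most panels.

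The remaining blastocyst comparisons gave no calls. M_KO against WT_flfl, M_KO against het and het against WT_flfl each had 0 of 34 genes passing by limma, and 0% of all 9585 genes passed in each, with limma voom on whole reads as well. At an unadjusted p under 0.05 there were 2, 4 and 1 of the 34 genes and 494, 638 and 187 of all genes. The lowest of these p-values for a member was that of Nme1 in M_KO against het, with an estimate of 0.36 (SE 0.13, adjusted p = 0.722). Estimates over the 34 genes ran from −0.55 to 0.56, −1.01 to 0.51 and −0.36 to 0.46.

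In morulae none of the 35 tested genes passed in any comparison. MZKO against het called 0.482% of all 9953 genes (0.412% higher and 0.0703% lower), MZKO against del 0.181% (0.141% and 0.0402%) and del against het 0.01%, and without MZKO 1 and het 1 the count of members stayed at 0 in all 3, as it did with limma voom. At an unadjusted p under 0.05 there were 2, 2 and 0 members. Tyms, thymidylate synthase, was the member with the lowest p against het, at 87.5, 250.3, 159, 352, 253 and 209.7 CPM in MZKO, 257, 465 and 409 in het and 367, 473, 267 and 419 in del. MZKO overlapped with both groups, and the estimates of −0.86 (SE 0.35, adjusted p = 0.459) and −0.89 (SE 0.32, adjusted p = 0.460) against het and del did not pass. Shmt1 had an estimate of 0.77 against het (SE 0.35, adjusted p = 0.552) and Pfas one of 1.57 against del (SE 0.57, adjusted p = 0.460), where del 4 and del 6 were at 4.02 and 4.06 CPM. For no member did all MZKO morulae lie outside the het and del embryos, where 0.472% of all genes lay above and 0.281% below. The same count against het alone was 0 in both directions, where 2.34% of all genes lay above and 1.91% below.

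None of the 10 genes that passed in MZ_KO blastocysts passed in MZKO morulae, where the intervals were wide. Gart stood at 185 to 438 CPM in the 6 MZKO morulae (median 320.3), 196, 344 and 272 CPM in het and 349, 291, 189 and 299 in del, and its estimate against het was 0.20 (95% interval −0.41 to 0.81). Nme1 stood at 191 to 478 CPM in MZKO (median 368), 248, 423 and 667 CPM in het and 366, 391, 344 and 437 CPM in del, with an estimate of −0.26 (−0.92 to 0.40). Phgdh stood at 768 to 2250.3 CPM in MZKO (median 1308), 1185, 2204 and 1934 CPM in het and 2156, 1559, 1558 and 1489 CPM in del, with −0.35 (−1.004 to 0.31). For Mthfd2 the estimate was −0.62 (−1.60 to 0.37). These groups of morulae overlapped for each of the 10 genes.

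The difference between the stages was tested directly, as the knockout effect against het in blastocysts minus that in morulae, over 8572 genes, 34 of them members. Nme1 alone passed, with a difference of 1.41 (SE 0.36, adjusted p = 0.0416), where 1.61% of all genes passed, 0.63% higher and 0.98% lower. Gart (−1.32, SE 0.36, adjusted p = 0.0549), Phgdh (1.43, SE 0.41, adjusted p = 0.0680) and Shmt1 (−1.46, SE 0.47, adjusted p = 0.105) came next and did not pass. The calls depended on single libraries. Without MZKO 1 and het 1 together, a choice made after seeing the data, 8 members passed: Nme1, Nme2 (0.91, adjusted p = 0.0189), Phgdh (1.53, 0.0117), Tyms (1.07, 0.0301) and Dtymk (0.97, 0.0279) higher, and Gart (−1.25, 0.0197), Rrm1 (−0.997, 0.0390) and Shmt1 (−1.52, 0.0474) lower, while the count over all genes went from 138 to 750. Nme1 passed in 11 of 21 alternatives, and leaving out morula het 7 gave 1.06 (adjusted p = 0.175).

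**Figure D4:**
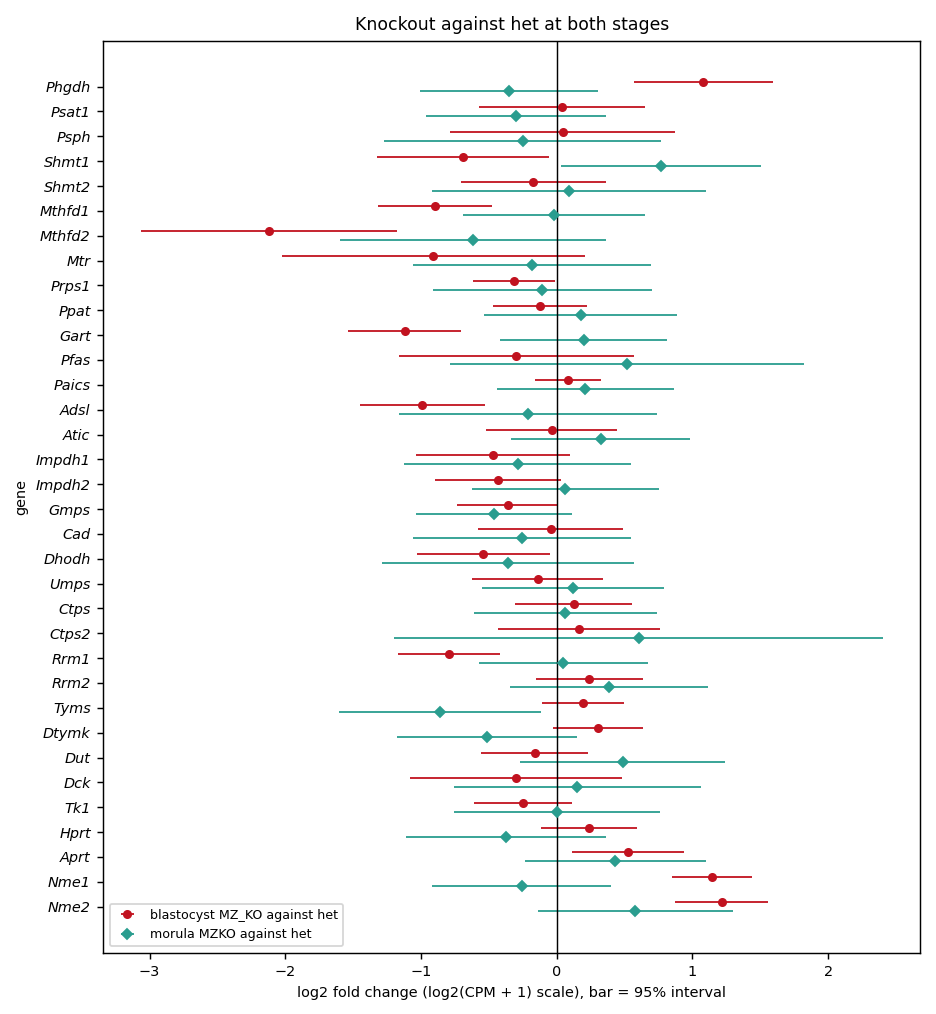
Log2 fold change of the knockout against het in blastocysts (circles) and in morulae (diamonds) for the 34 genes tested at both stages, with bars of the 95% interval. The intervals are wider in morulae for all genes but Mtr, and those of Nme1, Gart, Phgdh, Shmt1 and Tyms do not overlap between the stages.

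Per kilobase of exon, Hprt was the most abundant of the 36 genes in WT_flfl blastocysts (927 CPM per kb), followed by Prps1 (402), Rrm2 (338) and Phgdh (234). In MZ_KO the order after Hprt (847) was Phgdh (502), Nme2 (365), Rrm2 (338) and Nme1 (278). In het morulae it was Hprt (1481), Phgdh (714), Prps1 (591), Nme2 (481) and Impdh2 (472). Prps2, Pfas, Mtr and Mthfd1l were the 4 lowest in WT_flfl blastocysts, at 0.533 to 2.07 CPM per kb. Length was that of all annotated exons of a gene together, 1289 bases for Hprt and 11012 for Rrm1, not of the transcripts present. Nme1 and Nme2 are ranked without the reads given to Gm20390.

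Within an embryo, the balance of paralogs can be read without setting levels across the tables, although the batch still goes with the stage. The ratio of Nme2 to Nme1 was 0.351 to 0.547 in the 14 blastocysts and 1.04 to 3.22 in the 13 morulae, with no overlap. Within morulae it was 1.04 to 1.40 in het, 1.84 to 2.44 in del and 1.81 to 3.22 in MZKO, so that no het embryo overlapped with del or MZKO, and within blastocysts the 4 groups overlapped. Het 1 had the lowest ratio, and without it and MZKO 1 the het embryos still lay below all others. Del and MZKO overlapped. The share of locus reads given to Gm20390 separated the same morula groups, at 37.2 to 41.4% in het, 28.8 to 32.7% in del and 26.3 to 33.9% in MZKO. This share also separated the stages, at 43.0 to 50.4% in blastocysts and 26.3 to 41.4% in morulae. Its part in the ratio, between stages or between groups, was not tested. The ratio of Impdh2 to Impdh1 was 0.779 to 1.96 in blastocysts and 2.98 to 8.32 in morulae, the latter with overlapping groups. Shmt1 over Shmt2 overlapped between the stages (1.11 to 4.16 and 0.911 to 5.27), although in blastocysts it was 1.43 to 1.52 in MZ_KO, 2.01 to 3.54 in M_KO, 2.06 to 2.61 in WT_flfl and 1.11 to 4.16 in het. Ctps over Ctps2 was 2.03 to 5.29 in blastocysts and 3.91 to 460.0 in morulae, the highest from het 5 with Ctps2 at 0.560 CPM. Coding sequences were identical at 73.8% of aligned bases for the Impdh pair, 69.9% for the Ctps pair and 64.8% for the Shmt pair. Impdh2 overlaps Ndufaf3 on the opposite strand. The same holds for Shmt1 with Smcr8, Ctps2 with S100g, Aprt with Gm20388, Tk1 with Afmid and Gm20708, and Psph with Cct6a. These overlaps are of whole gene spans, and reads in shared bases cannot be assigned by strand.

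**Figure D5:**
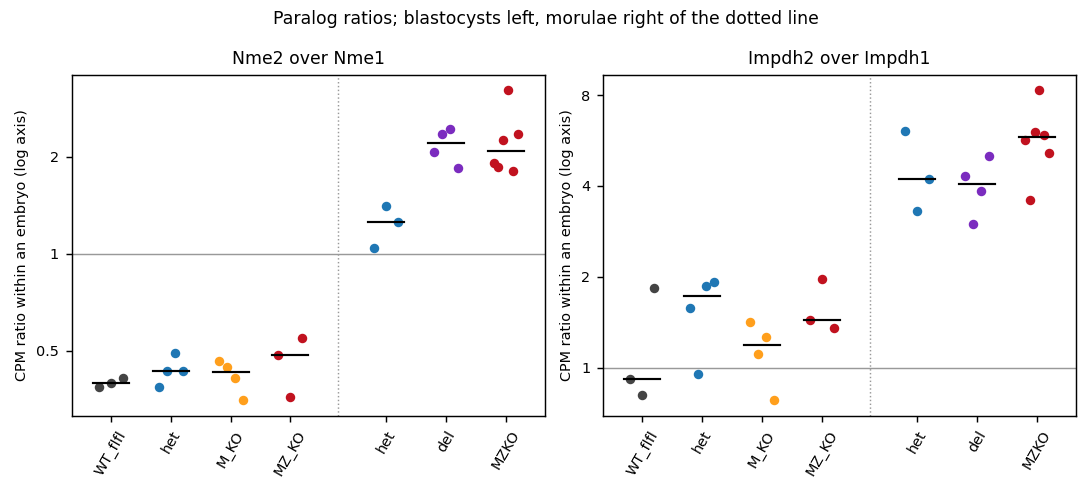
Ratio of Nme2 to Nme1 and of Impdh2 to Impdh1 within each embryo, on a log axis, 1 point per embryo and a bar at the group median. The ratios of the blastocysts (left of the dotted line) and of the morulae (right) do not overlap for either pair, and het morulae lie below del and MZKO morulae for the Nme pair. The share of reads given to Gm20390 separates the same stages and morula groups.

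A further 103 genes of these pathways were listed from textbook knowledge, with earlier results of these data known. Their counts are therefore a description and no independent test. Of the 103 genes, 96 were in each table and 78 were tested in blastocysts. Against WT_flfl 7 rose and 11 fell, where 13.2% of all genes passed, with a median log2 fold change of −0.19 against −0.05 for all genes, and against het 8 rose and 15 fell, where 17.9% passed, with −0.13 against −0.06. Against M_KO 6 rose and 13 fell, where 11.8% passed, with −0.17 against −0.03. In the comparisons with WT_flfl and het together, 6 rose (Ahcy, Bhmt, Cth, Ak6, Nudt1 and Nme6) and 11 fell (Aldh1l1, Cbs, Adss, Ampd2, Pnp, Uckl1, Tk2, Pgls, Myc, Mycn and E2f1). Of these, Ak6 (0.41, adjusted p = 0.0684) and Nme6 (0.35, adjusted p = 0.292) did not pass against M_KO, and the others did. Cbs, cystathionine beta-synthase, which joins homocysteine to serine, stood at 41.2 ± 15.4 CPM in MZ_KO and 212 ± 21.7 in WT_flfl and fell by 2.41 (SE 0.35, adjusted p = 2.89e-04). Cth, which cleaves the cystathionine made by Cbs, rose from 37.6 ± 9.54 to 94.6 ± 8.71 CPM (1.33, SE 0.26, adjusted p = 0.00332). Bhmt, which remethylates homocysteine with betaine, stood at 1648 ± 312 CPM against 692 ± 203 and rose by 1.28 (SE 0.35, adjusted p = 0.0240). Aldh1l1, which oxidises formyltetrahydrofolate, stood at 7.59 ± 2.93 CPM against 30.7 ± 7.99 and fell by 1.91 (SE 0.43, adjusted p = 0.00781).

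None of the 74 further genes tested in morulae passed in MZKO against del or in del against het, where 0.181% and 0.01% of all genes passed. In MZKO against het, groups with different prefixes, 1 of the 74 passed (0.482% of all genes). This was Ahcy, the hydrolase of S-adenosylhomocysteine. It rose there from 71.0 ± 14.1 to 266 ± 116 CPM (1.79, SE 0.35, adjusted p = 0.0217, n = 3 and 6 embryos, limma), and in MZ_KO blastocysts from 153 ± 18.4 to 409.9 ± 70.1 CPM (1.41, SE 0.19, adjusted p = 1.41e-04 against WT_flfl). In purine breakdown and conversion, Pnp, purine nucleoside phosphorylase, stood at 49.3 ± 2.496 CPM against 100.03 ± 6.23 and fell by 1.01 (SE 0.20, adjusted p = 0.00349). Adss, adenylosuccinate synthase, which acts just before Adsl on the way to AMP, stood at 79.5 ± 2.87 CPM against 129.6 ± 12.1 and fell by 0.69 (SE 0.20, adjusted p = 0.0304). Nudt1, which clears oxidised purine nucleotides, rose from 46.3 ± 4.09 to 98.7 ± 21.6 CPM (1.05, SE 0.24, adjusted p = 0.00858). Of the transcription factors listed as regulators, Mycn stood at 42.1 ± 5.88 CPM in WT_flfl and 6.06 ± 5.27 in MZ_KO (−3.20, SE 0.65, adjusted p = 0.00436) and Myc at 41.2 ± 20.5 and 9.16 ± 5.52 (−2.16, SE 0.60, adjusted p = 0.0264). E2f1 fell by 1.21 (SE 0.26, adjusted p = 0.00667). Uckl1 had the largest change of the further genes against WT_flfl, at 34.8 ± 3.67 CPM there and 1.61 ± 2.79 in MZ_KO (−4.31, SE 0.53, limma adjusted p = 7.45e-05). Ampd2 (−3.23, SE 0.74, adjusted p = 0.00882) and Tk2 (−3.03, SE 0.70, adjusted p = 0.00868) fell in the same comparison. At these low levels the fitted size depends on the pseudocount.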

How the data were processed

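Per the labels' protocols, cDNA of each embryo was made with Clontech's SMART-Seq kit for ultra-low input, a kit without strand marks, and read on an Illumina HiSeq. Each stage has its own table of log2 values, as deposited by the authors. Cutadapt 1.14, Bowtie2 2.2.9 and RSEM 1.3.1 with GRCm38 are named in the submitters' processing notes, without role or order. The deposited log2 values equal log2 counts per 1000000 reads after adding 0.5 reads. Undoing this gave whole reads for 100% of values (tolerance 0.01 reads), and CPM relative to the authors' scaled library size. No source used here says how reads shared by overlapping genes or paralogs were assigned, so values of such genes are uncertain.

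Tests used limma 3.58.1 (R 4.3.3) with a trended moderated variance on log2(CPM + 1), all groups of a stage in 1 fit, two-sided, with Benjamini-Hochberg adjustment over all genes tested. A fold change on this scale understates that of low genes. The design had assumed linear values. Groups came from sample titles, and positions from GENCODE M21. The script was tested on simulated data. Entries that name no mouse gene (3, at most 0.0113% of an embryo's reads) were left out. Members and lists were chosen with earlier results of these data known. Values were given for members passing in any comparison and for some of the further genes, not always those with the largest change in their list. Alternatives covered the pseudocount, filter, scaling, groups in the fit, a replicate block, left-out embryos and voom. Figures used Python 3.11.15 and matplotlib 3.10.9.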

Additional observations from a re-analysis of the deposited data

Results flagged for a closer look

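In groups of 4 to 10 embryos, 144 sets of member values were checked for an embryo that stood apart from the rest of its group, and 6 were found; chance alone gives about 1 in 20. In blastocysts, Phgdh was lowest in het 6 at 444 CPM (others 631 to 651 CPM), an embryo with 3.10% haemoglobin RNA, and Dtymk was highest in M_KO 4 at 248 CPM (185 to 193). In morulae, Phgdh was highest in del 2 at 2156 CPM (1489 to 1559), and Impdh2 was lowest in del 4 at 1063 CPM (1517 to 1606). Prps2 stood at 11.6 CPM in del 4 and at 0 in the other del embryos, and Nme2 was lowest in MZKO 1 at 367 CPM (803 to 985).

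For Nme1, the estimated effect of the knockout in blastocysts minus that in morulae was 1.41 on the log2 scale by limma (adjusted p = 0.0416). It passed in 11 of 21 alternatives, with adjusted p from 7.69e-04 to 0.175.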

How the results depend on the processing

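Against WT_flfl, het and M_KO, 7 to 10, 7 to 10 and 5 to 8 members passed in MZ_KO blastocysts over the alternatives, and no direction reversed. The comparisons with 0 members passing kept 0 in every alternative run. The stage difference, with 1 member passing, gave 0 with a filter of 1 CPM in 1 embryo, 2 at 30 CPM in 3 embryos, 0 to 4 when single embryos were left out, and 8 without both morulae with most genes detected. The cause was not tested.

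Over all genes, 1265 calls against WT_flfl became 826 without WT_flfl 1, 783 without WT_flfl 7 and 787 without WT_flfl 1 and het 6. The 1711 against het became 1058 without MZ_KO 2 and 1011 without WT_flfl 1 and het 6. The 1133 against M_KO became 724 without M_KO 1 and 711 without MZ_KO 2. In morulae, 48 calls for MZKO against het became 90 without MZKO 1, 29 without het 7 and 28 with voom. The 18 against del became 11 at 30 CPM and 3 with voom, and the 1 call of del against het varied from 0 to 4. The 138 for the stage difference ranged from 53 without het 7 to 706 without het 1 and 750 without both morulae.

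Embryo numbers did not pair the samples (correlations of −0.144 and −0.120 for M_KO with het, −0.120 to 0.140 for MZKO with del). With a replicate block, 0 members passed for M_KO against het and 0 for MZKO against del (5 and 21 genes in all, against 0 and 18). Other comparisons shared fewer than 2 numbers. The planned edgeR and DESeq2 fits were not run, because the deposited unit is log2. Groups of 3 to 6 embryos and the shallow del 6 limit precision.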
